A study of Rattus norvegicus with 42 samples.

Results

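The genes described here are 10 glucocorticoid-linked genes of growth control and kinase signalling in rat liver. They are Errfi1, Dusp1, Dusp6, Sgk1, Ddit4, Sesn1, Cdkn1a, Gadd45a, Gadd45b and Gadd45g, and all but Sgk1 are described as brakes. They were found by gene name among the 60999 coding regions of the pSer2 Pol2 data, where they hold 25 regions, and by Ensembl gene ID among the 22929 genes of the RNA counts. All 10 passed the filter of more than 10 reads over the 12 RNA libraries, which left 14092 genes. GR binding was taken from the 19 of 3981 GR regions centred within 50 kb of a transcription start site (TSS) of a member. The members are a chosen list and not a random sample of genes.

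Livers came from male Sprague Dawley rats without adrenals, infused intravenously with corticosterone (CORT, the rat's main glucocorticoid, in a cyclodextrin carrier) or with the carrier in saline (VEH). Pulsatile infusion (PULS) delivered CORT for 20 min of each hour, and constant infusion (CONS) delivered the matched dose without a break. Age was not given. All animals, controls included, had received dexamethasone at surgery and CORT in the drinking water during recovery, so VEH livers are livers deprived of hormone and not livers never exposed to it. ChIP-Seq libraries, 2 per group with 6 rats pooled in each, were taken at the pulse peak (PEAK_140, 140 min), the following trough (NADIR_180, 180 min) and at both times of constant infusion (CONS_140, CONS_180). The 2 VEH ChIP libraries of each antibody both came from pulsatile vehicle, 1 at 140 min and 1 at 180 min, so in every comparison of CONS with VEH the infusion pattern of the vehicle cannot be told apart from the CORT. RNA-Seq libraries were taken at 180 min from 3 rats in each of PULS CORT, PULS VEH, CONS CORT and CONS VEH.

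GR libraries held between 2051977 and 6715803 tags, and those of pSer2 Pol2 between 4938473 and 9326927. The range for RNA was 3956379 to 7777219 reads. The hepatocyte markers Alb, Apoa1, Ttr, Cyp2e1 and Hnf4a summed to 77200 to 126000 CPM (read counts scaled to library size) in the RNA libraries, and none of the 5 was called in either CORT response. The low end came from CONS VEH (77200 to 118000 CPM), and the other groups lay between 113000 and 126000 CPM. The part of this spread in the CONS differences was not tested. A feature was called where its Benjamini-Hochberg adjusted p was below 0.05 and it changed by more than 1.5-fold, by edgeR for RNA and by limma for both ChIP assays.

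Apart from Sgk1, these genes sit at points where a growth signal is turned down. Errfi1 binds and inhibits the EGF receptor family, Dusp1 and Dusp6 remove phosphates from MAP kinases, Ddit4 and Sesn1 restrain the growth kinase complex mTORC1, Cdkn1a (p21) inhibits cyclin-dependent kinases, and the Gadd45 proteins link stress to growth arrest. Sgk1 is a kinase and not such a brake, known for its induction by corticosteroids in many tissues, and several of the others are known glucocorticoid targets.

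Under CONS, 6 of the 10 members changed in RNA, where 9.2% of all genes tested were called. Cdkn1a, Gadd45b, Errfi1 and Dusp1 rose, and Sgk1 and Dusp6 fell. Under PULS, 2 of the 10 members changed, both upwards, where 4.23% of all genes were called. These were Cdkn1a and Dusp1. With no filter on low counts 5 were called under PULS, with Errfi1 added upwards and Sgk1 and Gadd45g downwards, and 4 were called without PULS VEH replicate 1. The median log2 difference of the members was 1.18 under CONS and -0.0483 under PULS, against -0.00993 and -0.0133 over all genes.

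No member was called in the test of the difference between these responses (CONS minus PULS), in which 0.0284% of all genes were called by edgeR. Of the members, 4 of 10 had an unadjusted p below 0.05 there (Gadd45g, Sesn1, Cdkn1a and Errfi1), each with the higher value under CONS, and DESeq2 called 0. The lists of called members under PULS and CONS were therefore not shown to differ. In the direct comparison of CONS CORT with PULS CORT, with 0.887% of genes called, 0 members were called by edgeR or DESeq2, and 6 had an unadjusted p below 0.05. PULS VEH and CONS VEH did not separate any member either, with 0% of genes called, and 0 members below an unadjusted p of 0.05 in edgeR and 0 called by DESeq2.

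**Figure D1:**
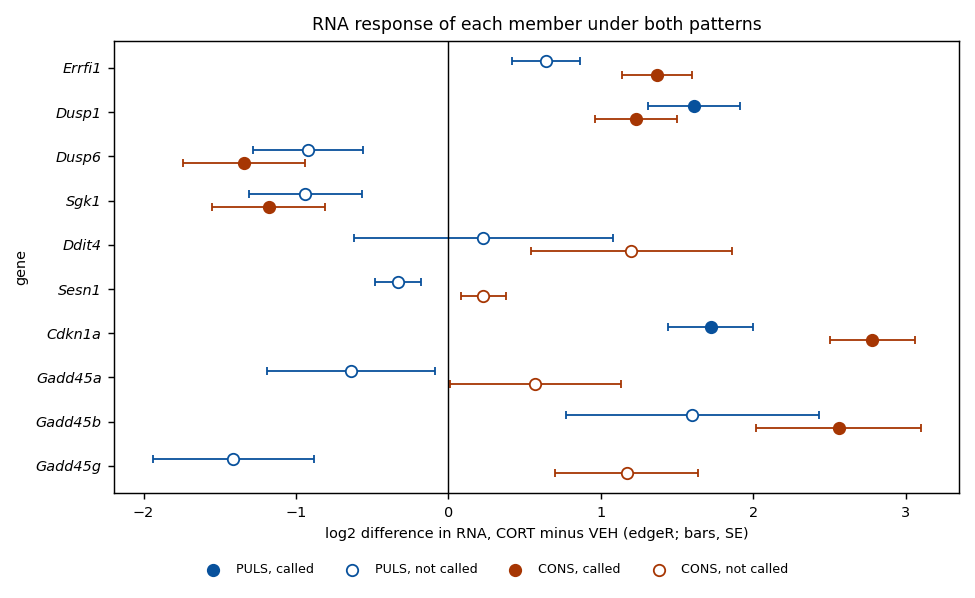
Log2 difference in RNA between CORT and VEH for each of the 10 members (x axis; bars are SE from edgeR), with PULS in blue and CONS in brown and filled points for called genes. Cdkn1a and Dusp1 are filled for both patterns, Errfi1, Dusp6, Sgk1 and Gadd45b for CONS, and the Sesn1, Gadd45a and Gadd45g points lie on opposite sides of 0 under PULS and CONS without being called.

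Errfi1 carried the most GR regions of any member, with 6. Its RNA was 390, 496 and 417 CPM in CONS VEH and 1190, 1050 and 1110 CPM in CONS CORT. In PULS VEH it was 569, 269 and 668 CPM, and in PULS CORT 723, 837 and 780 CPM. Every CORT library was above every VEH library of its own pattern. Under CONS the rise was 1.37 ± 0.23 (log2, SE, n = 3 against 3; adjusted p = 7.3e-04, edgeR). Under PULS the difference was 0.64 ± 0.22 and was not called (adjusted p = 0.1147); PULS VEH replicate 2 was the lowest library, and without PULS VEH replicate 3 the difference was 0.90 and was called (adjusted p = 0.04188), as it was with no filter on low counts (0.63, adjusted p = 0.03481).

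The pSer2 Pol2 antibody marks polymerase in the body of transcribed genes, and its values are given as deposited, on a log2 scale. Errfi1 (chr5:167952728-167962728, + strand, rn6) had values of 12.54 and 12.75 in VEH, 13.06 and 12.96 at PEAK_140, 12.27 and 12.24 at NADIR_180, 12.92 and 12.82 at CONS_140, and 13.01 and 12.99 at CONS_180. The NADIR_180 libraries were the lowest of all, below VEH, and both CONS times stayed above VEH. None of these differences was called (PEAK_140 against NADIR_180 0.75 ± 0.18, adjusted p = 0.1754; CONS_180 against NADIR_180 0.75 ± 0.18, adjusted p = 0.3829, limma), although the first was called without either CONS_140 library (adjusted p = 0.03393 and 0.03395) or with each library centred on its median (0.85 ± 0.16, adjusted p = 0.02597).

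GR at the Errfi1 locus was raised on both sides of the TSS. At the region 0.9 kb upstream, annotated as promoter, GR values were 0.77 and -0.65 in VEH, 5.95 and 6.13 at PEAK_140, 1.55 and 1.77 at NADIR_180, 6.48 and 5.69 at CONS_140, and 5.33 and 5.55 at CONS_180. The PEAK_140 and CONS libraries stood together, far above VEH and NADIR_180. The rise over VEH was 5.98 ± 0.58 at PEAK_140 (adjusted p = 5.4e-05, limma), and PEAK_140 exceeded NADIR_180 by 4.39 ± 0.58 (adjusted p = 5.4e-04). The regions 2.9 kb upstream and 16.3 kb downstream were also called at PEAK_140 and at both CONS times, in 10 of 10 fits with 1 library left out. The region 42.2 kb downstream, in intron 5 of the neighbouring gene Park7, was called at the same times, but without VEH replicate 2 all 3 calls were lost (2.47, 1.72 and 1.57; adjusted p = 0.1129, 0.2984 and 0.3211). Its PEAK_140 call was also lost without either PEAK_140 library (adjusted p = 0.05688 and 0.06536), and each CONS call held in only 3 of 10 such fits, those without VEH replicate 1 or a NADIR_180 library. At the region 14.3 kb downstream the libraries of 1 group disagreed, with 6.67 and -0.73 at CONS_140, and nothing was called.

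A narrow region of 149 b in intron 1 of Errfi1, 2.4 kb downstream of the TSS, went the other way. GR values there were 4.20 and 2.69 in VEH, -0.65 and -0.44 at PEAK_140 and -0.80 and -0.64 at NADIR_180. It was lower at PEAK_140 (-3.99 ± 0.71, adjusted p = 0.001041, limma) and at NADIR_180 (-4.16 ± 0.71, adjusted p = 0.008454; 0.07232 without VEH replicate 1). At CONS_140 the values were 2.17 and 2.76 and at CONS_180 2.92 and 2.51, which overlapped VEH at both times. PEAK_140 against CONS_140 was not called (-3.01 ± 0.71, adjusted p = 0.1935, limma), and CONS_180 exceeded NADIR_180 (3.44 ± 0.71, adjusted p = 0.005642). The change from 140 to 180 min differed between PULS and CONS by 0.42 ± 1.01, which was not called (adjusted p = 0.7235). This intron 1 region was the only member region that the authors called as a peak in VEH and the only one they called in no CORT group. It therefore entered the GR regions through VEH alone. Values below VEH were thus partly built in, and the tests against VEH cannot separate a fall from that choice.

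Dusp1, a phosphatase for the p38, JNK and ERK kinases, rose in RNA under both patterns. Its RNA was 4.35, 8.12 and 3.94 CPM in PULS VEH and 15.2, 18.3 and 17.2 CPM in PULS CORT. In the constant arm it was 9.16, 5.95 and 7.60 CPM with VEH and 15.8, 25.6 and 12.4 CPM with CORT. No CORT library overlapped its VEH group, at 19 to 182 reads per library. The rise was 1.61 ± 0.30 under PULS (adjusted p = 0.004911, edgeR) and 1.23 ± 0.27 under CONS (adjusted p = 0.005894), and both calls held without any of the 12 libraries.

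On Dusp1 (chr10:16970626-16973418, + strand) pSer2 Pol2 values were 9.64 and 9.73 in VEH, 10.61 and 10.07 at PEAK_140, 9.62 and 8.92 at NADIR_180, 11.09 and 10.70 at CONS_140, and 10.84 and 10.28 at CONS_180. The PEAK_140 and CONS libraries lay above VEH and the NADIR_180 libraries below it. None of these differences was called (CONS_140 1.21 ± 0.34, adjusted p = 0.2365, limma; 1.41 ± 0.40, adjusted p = 0.04746, without CONS_140 replicate 2).

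GR bound 4.6 kb upstream of Dusp1, and 1 library had a high value in its exon 1. At the upstream region GR values were 2.59 and -0.66 in VEH, 5.48 and 5.38 at PEAK_140, 3.47 and -0.21 at NADIR_180, 5.40 and 5.06 at CONS_140, and 5.09 and 5.29 at CONS_180. The 6 libraries of PEAK_140 and CONS lay close together, and the VEH and NADIR_180 pairs were each spread widely. It was called over VEH at PEAK_140 (4.46 ± 1.26, adjusted p = 0.01001, limma), CONS_140 and CONS_180, and not at NADIR_180. All 3 calls were lost without VEH replicate 2 (2.84, 2.64 and 2.60; adjusted p = 0.07435, 0.1108 and 0.1125). They were also lost without PEAK_140 replicate 1 (adjusted p = 0.05218), CONS_140 replicate 1 (adjusted p = 0.07795) and either CONS_180 library (adjusted p = 0.06973 and 0.07635), each for its own group. The exon 1 region, 414 b downstream of the TSS, reached 5.03 in CONS_140 replicate 1 but -1.52 in replicate 2, and was called in no comparison.

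Dusp6, the ERK-specific phosphatase and a standard readout of ERK activity, moved against Dusp1. RNA was 4.28, 7.93 and 6.15 CPM in CONS VEH and 2.03, 1.83 and 3.22 CPM in CONS CORT. It was 3.99, 11 and 11.6 CPM in PULS VEH and 3.85, 5.44 and 4.72 CPM in PULS CORT, so the pulsatile groups overlapped through PULS VEH replicate 1. The fall under CONS was -1.34 ± 0.40 (adjusted p = 0.03557, edgeR), and it was lost without CONS VEH replicate 2 (-1.12, adjusted p = 0.1145) or 3 (-1.31, adjusted p = 0.09098) or CONS CORT replicate 1 (-1.26, adjusted p = 0.1054) or 2 (-1.15, adjusted p = 0.1306). Under PULS the difference was -0.92 ± 0.36 (adjusted p = 0.1548), and without PULS VEH replicate 1 it was -1.28 ± 0.29 and was called (adjusted p = 0.01995). In whole-liver extracts, fewer cells of a type and less RNA per cell cannot be told apart.

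The pSer2 Pol2 values on Dusp6 (chr7:41475163-41479392, + strand) were 8.79 and 8.98 in VEH, 7.03 and 7.18 at PEAK_140, 8.16 and 7.99 at NADIR_180, 7.54 and 6.59 at CONS_140, and 7.56 and 6.88 at CONS_180. Every CORT library was below both VEH libraries, and NADIR_180 lay between. The differences from VEH were -1.77 ± 0.39 at PEAK_140 (adjusted p = 0.06884, limma), -1.81 ± 0.39 at CONS_140 (adjusted p = 0.06902) and -1.66 ± 0.39 at CONS_180 (adjusted p = 0.2094). With the replicate number as a block, which the pSer2 Pol2 libraries share, the first and second were called (adjusted p = 0.02304 and 0.02538). The single GR region near Dusp6 lay 46.1 kb upstream, and the authors named AABR07056791.1 as its nearest gene. It was raised over VEH in all 4 CORT groups. The rise was 5.04 ± 0.75 at PEAK_140 (adjusted p = 4.0e-04, limma), 3.02 ± 0.75 at NADIR_180 (adjusted p = 0.04304), 2.90 ± 0.75 at CONS_140 (adjusted p = 0.0081) and 4.28 ± 0.75 at CONS_180 (adjusted p = 0.001285). The NADIR_180 call held in only 2 of 10 fits with 1 library left out, those without a CONS_140 library (adjusted p = 0.02649 to 0.1931 over the 10), and was lost without the variance trend (adjusted p = 0.05116) or with only the libraries of the comparison (adjusted p = 0.316). The CONS_140 call was lost without CONS_140 replicate 1 (2.03, adjusted p = 0.055).

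Promoter sequences of these 3 feedback genes are shown because they are the part of each locus that can be read without the rn6 genome. They come from RefSeq (GRCr8 build, 250 b before to 50 b after the start, written 5′ to 3′ on the strand of the gene), which listed 12 promoters for the 10 members. Capitals mark matches, on either strand, to the GR palindrome core ACANNNTGT, the cyclic AMP response element TGACGTCA, the CCAAT box and the TATA box TATAAA. No match overlapped another in the 3 promoters printed.
Dusp1 (chr10:17184603-17184902, + strand): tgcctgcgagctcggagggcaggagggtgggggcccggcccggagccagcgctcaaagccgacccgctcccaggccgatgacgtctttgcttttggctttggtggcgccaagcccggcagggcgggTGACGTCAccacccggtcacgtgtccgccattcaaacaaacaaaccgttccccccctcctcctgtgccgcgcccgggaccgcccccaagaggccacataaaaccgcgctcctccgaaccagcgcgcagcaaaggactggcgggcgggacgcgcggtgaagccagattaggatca
Dusp6 (chr7:35979354-35979653, + strand): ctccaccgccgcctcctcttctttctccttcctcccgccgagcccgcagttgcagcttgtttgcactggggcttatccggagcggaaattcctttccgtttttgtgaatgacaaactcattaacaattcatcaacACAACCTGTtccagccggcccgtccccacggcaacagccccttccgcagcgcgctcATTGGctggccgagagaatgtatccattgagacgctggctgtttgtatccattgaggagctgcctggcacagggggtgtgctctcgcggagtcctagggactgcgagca
Errfi1 (chr5:166606591-166606890, + strand): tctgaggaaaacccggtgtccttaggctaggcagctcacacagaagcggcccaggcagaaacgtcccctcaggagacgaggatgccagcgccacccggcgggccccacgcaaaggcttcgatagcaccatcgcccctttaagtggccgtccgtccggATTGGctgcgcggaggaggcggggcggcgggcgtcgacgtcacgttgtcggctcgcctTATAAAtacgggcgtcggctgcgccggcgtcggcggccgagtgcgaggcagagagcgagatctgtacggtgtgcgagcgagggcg

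The Dusp6 promoter was the only one of the 12 with the palindrome core, as ACAACCTGT starting 115 b before the start, where 6.86% of 33469 rat promoters held a match. Dusp1 alone held the cyclic AMP response element (1.83% of all promoters), 124 b before its start. The CCAAT box was in 7 of 12 (37.5% of all) and the TATA box in 4 of 12 (14.2% of all). The member promoters had a median of 23 CG dinucleotides in 300 b, against 7 over all promoters.

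Sgk1, a kinase of the AGC family that acts downstream of mTORC2, was lower with CORT in RNA. Its RNA was 94.7, 69.2 and 61.4 CPM in CONS VEH and 32.5, 21.4 and 46.4 CPM in CONS CORT, without overlap. It was 131, 34 and 98.5 CPM in PULS VEH and 52.0, 29.9 and 55.4 CPM in PULS CORT, where PULS VEH replicate 2 lay among the CORT libraries. Under CONS it fell (-1.18 ± 0.37, adjusted p = 0.04859, edgeR), close to the threshold. That call was lost with DESeq2 (adjusted p = 0.1041) and without any of 8 libraries, namely PULS VEH replicate 3, PULS CORT replicates 1 and 3, CONS VEH replicates 1, 2 and 3 and CONS CORT replicates 1 and 2 (adjusted p = 0.05753 to 0.1723). Under PULS the difference was -0.94 ± 0.37 (adjusted p = 0.1603), and without PULS VEH replicate 2 it was -1.32 ± 0.28 and was called (adjusted p = 0.01513), as it was with no filter on low counts (adjusted p = 0.03557).

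**Figure D2:**
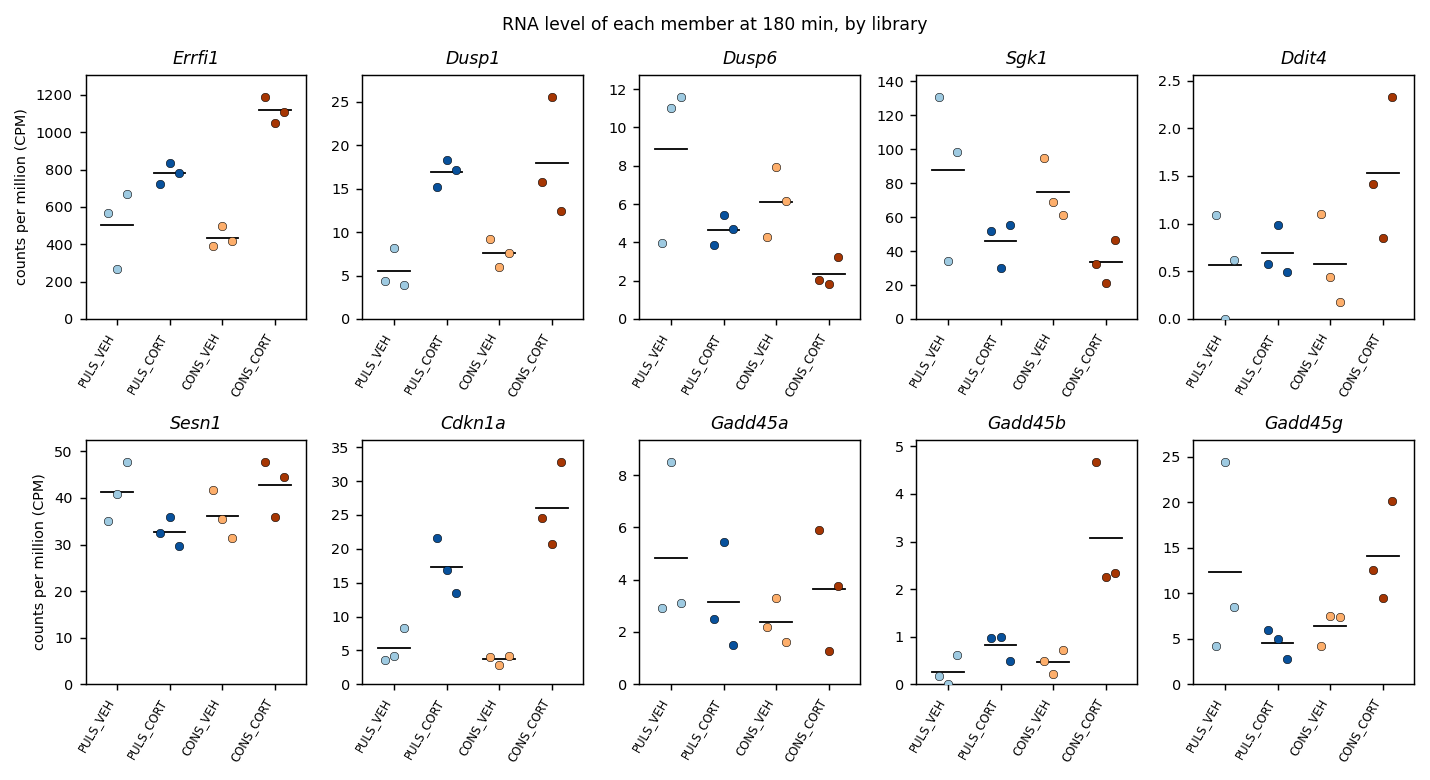
RNA level of each member in the 12 libraries (y axis, CPM from 0; each point 1 rat, black line the mean of 3). In PULS VEH, 1 library lies apart from the other 2 for Sgk1, Errfi1, Gadd45a and Gadd45g, where replicate 2 has 34, 269, 8.5 and 24.4 CPM. A PULS VEH library also lies apart for Dusp1 (replicate 2, 8.12 CPM), Dusp6 (replicate 1, 3.99 CPM) and Cdkn1a (replicate 3, 8.3 CPM).

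The pSer2 Pol2 region that carries the Sgk1 gene ID (chr1:24292298-24302298, - strand) was at 0 in all 10 libraries and was not tested, so Sgk1 was read from its 3 transcript regions, which share an end and overlap. At the longest of them with tags, chr1:24185456-24193567, values were 9.30 and 9.22 in VEH, 8.65 and 8.50 at PEAK_140, 7.65 and 7.84 at NADIR_180, 9.34 and 8.96 at CONS_140, and 8.00 and 7.75 at CONS_180. Both 180 min groups were lower than any 140 min group and lower than the VEH library of 180 min. Differences from VEH over the 3 regions were -1.51 to -1.62 at NADIR_180 (adjusted p = 0.4905 to 0.4922, limma) and -1.37 to -1.50 at CONS_180 (adjusted p = 0.1236 to 0.1808), and none was called in any comparison.

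GR occupied the Sgk1 promoter, in a region centred 356 b upstream of a TSS. GR values were 1.94 and 0.56 in VEH, 3.92 and 3.61 at PEAK_140, 3.10 and 2.24 at NADIR_180, 4.94 and 2.85 at CONS_140, and 3.80 and 3.98 at CONS_180. The NADIR_180 pair was above VEH and below PEAK_140 and CONS_180, and it overlapped CONS_140. The rise was called at PEAK_140 (2.51 ± 0.80, adjusted p = 0.01769, limma), CONS_140 (2.64 ± 0.80, adjusted p = 0.01752) and CONS_180 (2.63 ± 0.80, adjusted p = 0.01808), and its sign turned with GR values centred per library (-2.10, -1.47 and -1.43), since the median region rose more. All 3 calls were lost without VEH replicate 2 (1.82, 1.95 and 1.94; adjusted p = 0.1157, 0.1163 and 0.1147). The CONS_140 value was 1.6 (adjusted p = 0.1457) without CONS_140 replicate 1, and the other 2 were lost without either library of their own group (adjusted p = 0.05304 to 0.08222).

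Of the mTORC1 brakes, Ddit4 (REDD1) was near the floor of the RNA counts. It had 6, 0 and 3 reads in PULS VEH, 3, 4 and 2 in PULS CORT, 9, 2 and 1 in CONS VEH, and 7, 6 and 13 in CONS CORT. All 4 groups overlapped, and the constant arm differed by 1.20 ± 0.66 (adjusted p = 0.285, edgeR). Its pSer2 Pol2 values (chr20:29509289-29511382, - strand) were 4.99 and 4.73 in VEH, 5.27 and 4.98 at PEAK_140, 5.16 and 5.08 at NADIR_180, 6.69 and 5.92 at CONS_140, and 5.34 and 4.75 at CONS_180. Only CONS_140 stood clear of the other 4 groups. The difference from VEH was 1.44 ± 0.36 (adjusted p = 0.1491, limma), and it was called with the replicate block (adjusted p = 0.03621) and without CONS_140 replicate 2 (1.82, adjusted p = 0.008045).

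Ddit4 had 3 GR regions, 20.9 kb and 16.7 kb upstream and 27.2 kb downstream, all intergenic. In VEH their values lay between -0.98 and -0.63. At PEAK_140 the first was 4.98 and 4.59, at NADIR_180 -0.57 and 1.71, and at the CONS times 5.44, 5.23, 5.26 and 4.98. All 3 were called over VEH at PEAK_140 and at both CONS times, by 3.98 to 6.20, and none at NADIR_180. In each of the 3, both PEAK_140 libraries were above both NADIR_180 libraries, a difference of 4.21 ± 0.75 at the first (adjusted p = 0.001754, limma).

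Sesn1, a leucine-sensing sestrin and p53 target, had no GR region within 50 kb, the only member without one. Its RNA was 35.0, 40.8 and 47.7 CPM in PULS VEH, 32.5, 35.9 and 29.6 CPM in PULS CORT, 41.8, 35.5 and 31.3 CPM in CONS VEH, and 47.7, 36 and 44.4 CPM in CONS CORT. CORT and VEH overlapped in both arms, and the CONS CORT libraries were all above the PULS CORT libraries. The differences were -0.33 ± 0.15 under PULS and 0.23 ± 0.15 under CONS, neither called, and the difference between them was 0.56 ± 0.21 (adjusted p = 0.2791, edgeR). Its pSer2 Pol2 value sat at 2.05 in 6 of the 10 libraries, the lowest value of that region, and reached 2.77 in CONS_140 replicate 1. Sesn1 was not called, except when CONS_140 replicate 2 was left out, so that this high library stood alone (CONS_140 against VEH 0.62, adjusted p = 0.005481, limma).

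Cdkn1a had the largest RNA difference from VEH of the 10 members under both patterns. It was 4.03, 2.87 and 4.16 CPM in CONS VEH and 24.6, 20.7 and 32.8 CPM in CONS CORT. Under pulses it was 3.62, 4.15 and 8.30 CPM in PULS VEH and 21.6, 16.8 and 13.4 CPM in PULS CORT. The groups were far apart in both arms. The rise was 2.78 ± 0.28 under CONS, or 6.87-fold (adjusted p = 6.5e-06, edgeR), and 1.72 ± 0.28 under PULS, or 3.29-fold (adjusted p = 0.002104). The difference between the responses was 1.06 ± 0.41 and was not called (adjusted p = 0.287), and both rises were called without any of the 12 libraries.

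Cdkn1a (chr20:6351458-6358864, + strand) was the only member whose gene-level pSer2 Pol2 region was called, in 1 of 9 tested at CONS_140 against VEH, where 0.775% of 16262 gene-level regions were called. Values were 6.86 and 5.6 in VEH, 8.43 and 7.74 at PEAK_140, 6.40 and 6.44 at NADIR_180, 9.63 and 8.99 at CONS_140, and 8.17 and 7.24 at CONS_180. The NADIR_180 pair was back within the VEH range. The rise at CONS_140 was 3.08 ± 0.48 (adjusted p = 0.0126, limma), set against a median of 0.154 over all gene-level regions in that comparison. The call was lost without VEH replicate 2 (2.45, adjusted p = 0.1214), NADIR_180 replicate 1 (3.08, adjusted p = 0.1086) or 2 (3.08, adjusted p = 0.1102) or CONS_140 replicate 1 (2.76, adjusted p = 0.3382). At PEAK_140 the difference was 1.86 ± 0.48 (adjusted p = 0.1524), which passed with each library centred on its median (1.95 ± 0.40, adjusted p = 0.02609).

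Within intron 1 of Cdkn1a, 924 b downstream of its TSS, lay a GR region with little spread between libraries. GR values were 2.65 and 2.11 in VEH, 7.08 and 7.07 at PEAK_140, 4.40 and 4.56 at NADIR_180, 8.26 and 8.00 at CONS_140, and 6.51 and 6.42 at CONS_180. The 5 groups did not overlap. By p it ranked 45 of 3981 regions at PEAK_140 (4.69 ± 0.31, adjusted p = 1.2e-05, limma) and 12 at CONS_140 (5.75 ± 0.31, adjusted p = 7.3e-06). It was 1 of 3 member regions still raised at NADIR_180 (2.10 ± 0.31, adjusted p = 0.004773), with PEAK_140 above NADIR_180 by 2.60 ± 0.31 (adjusted p = 3.8e-04). The NADIR_180 call was lost without the variance trend, with only the libraries of the comparison, and with median centring or quantile normalization. Over the 6 alternatives to the main fit the difference was 0.92 to 2.10 (adjusted p = 0.004773 to 0.7348, limma).

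**Figure D3:**
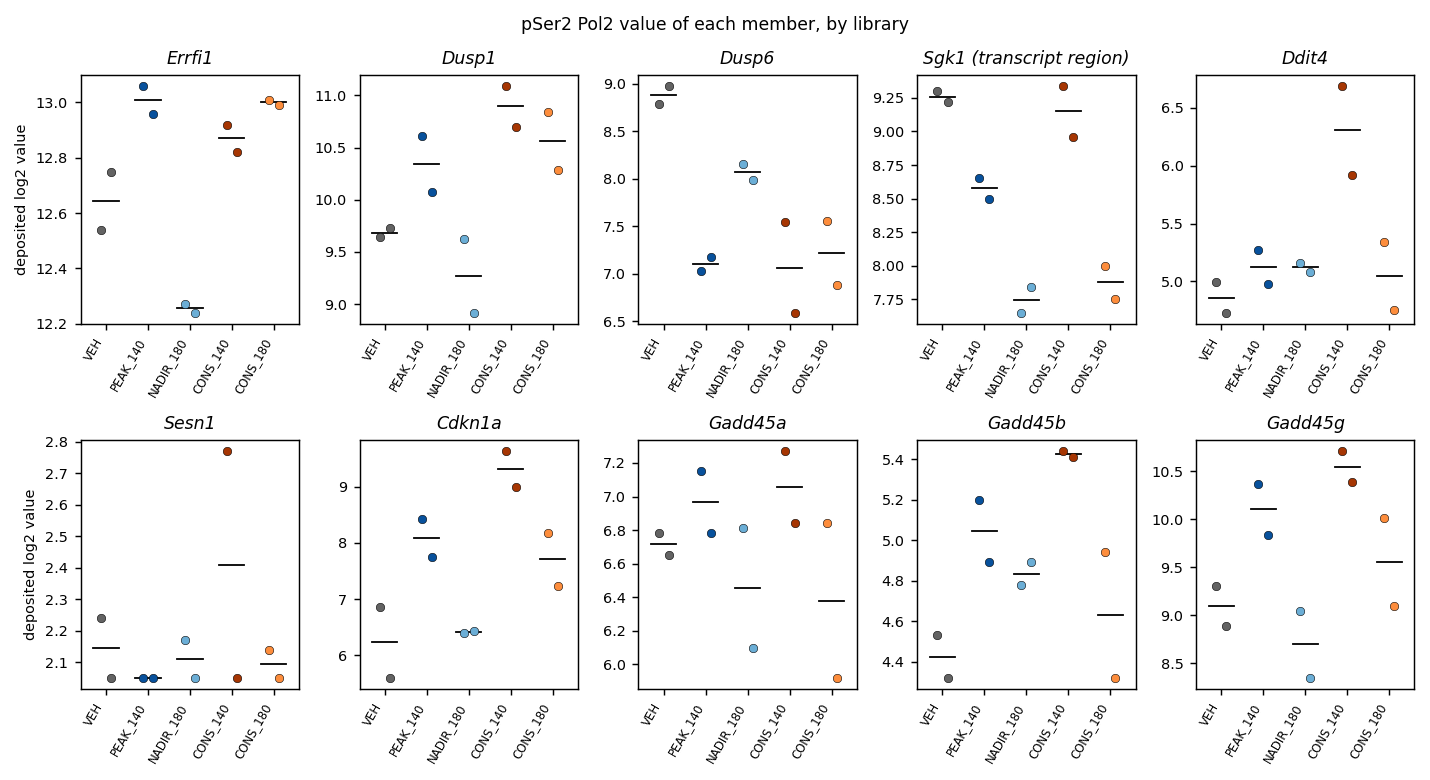
pSer2 Pol2 value of each member (y axis, deposited log2 value, not starting at 0; each point 1 library of pooled livers, black line the mean of 2), at the gene-level region or, for Sgk1, its longest transcript region with tags. Dusp6 is lower than VEH in all 8 CORT libraries, and Cdkn1a is highest at CONS_140, with 9.63 and 8.99.

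The 3 Gadd45 genes encode small stress-induced proteins that bind the kinases upstream of p38 and JNK as well as cell cycle partners, and they differed from each other. Gadd45b had 4, 1 and 4 reads in CONS VEH and 23, 16 and 13 in CONS CORT. In the pulsatile arm it had 1, 0 and 3 reads with VEH and 5, 4 and 2 with CORT. The constant groups did not overlap and the pulsatile groups did. It rose under CONS (2.56 ± 0.54, adjusted p = 0.00424, edgeR) and was not called under PULS (1.6 ± 0.83, adjusted p = 0.2973), on counts near the floor of 3 reads.

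Gadd45g RNA was 4.17, 24.4 and 8.5 CPM in PULS VEH and 5.97, 4.95 and 2.73 CPM in PULS CORT. In the constant arm it was 4.15, 7.49 and 7.42 CPM with VEH and 12.6, 9.43 and 20.1 CPM with CORT. All CONS CORT libraries were above all CONS VEH and all PULS CORT libraries, while the pulsatile groups overlapped. The difference was 1.17 ± 0.47 under CONS (adjusted p = 0.1269, edgeR) and -1.41 ± 0.53 under PULS (adjusted p = 0.1363), and the gap between these of 2.58 ± 0.71 was the widest of the 10 members and was not called (adjusted p = 0.1375). PULS VEH replicate 2 held the highest value, and without it CONS CORT against PULS CORT was called at Gadd45g (1.58 ± 0.36, adjusted p = 0.04205); without PULS VEH replicate 1 the PULS difference was called (-1.83 ± 0.44, adjusted p = 0.0326). With no filter on low counts, Gadd45g was called in both arms, in the direct comparison and in the difference of the responses (2.58 ± 0.54, adjusted p = 0.01139). Without PULS VEH replicate 2 the CONS rise was called too (1.17 ± 0.33, adjusted p = 0.02579).

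Gadd45a was spread in every group, from 1.27 to 5.89 CPM in CONS CORT and from 2.90 to 8.5 CPM in PULS VEH. Neither arm was called (PULS -0.64 ± 0.55, adjusted p = 0.5728; CONS 0.57 ± 0.56, adjusted p = 0.5895, edgeR). The libraries held 6 to 45 reads of it.

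In pSer2 Pol2 the Gadd45 genes were not called at any time. Gadd45g (chr17:13391467-13393243, - strand) had 9.31 and 8.89 in VEH, 10.37 and 9.84 at PEAK_140, 9.05 and 8.35 at NADIR_180, 10.71 and 10.39 at CONS_140, and 10.01 and 9.10 at CONS_180. PEAK_140 and CONS_140 were clear of VEH, and the 180 min groups overlapped it. The CONS_140 difference was 1.46 ± 0.39 (adjusted p = 0.193, limma) and was called with the replicate block (adjusted p = 0.03739), and PEAK_140 against NADIR_180 was 1.40 ± 0.39 (adjusted p = 0.2855), called with each library centred on its median (1.5 ± 0.31, adjusted p = 0.03863). Gadd45b stood at 5.44 and 5.41 at CONS_140 against 4.53 and 4.32 in VEH, and Gadd45a ranged from 5.92 to 7.27 over all 10 libraries, with neither called.

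GR regions near the Gadd45 genes were mostly distal. The region 33.1 kb downstream of Gadd45b, in intron 1 of Gng7, had values of 0.93 and 2.10 in VEH, 7.19 and 6.80 at PEAK_140, 5.05 and 5.07 at NADIR_180, 7.11 and 7.08 at CONS_140, and 6.23 and 6.39 at CONS_180. Like the Cdkn1a intron it was above VEH at the trough (NADIR_180 against VEH 3.54 ± 0.42, adjusted p = 0.001786, limma). This call held in 4 of 6 alternatives to the main fit (2.32 to 3.54, adjusted p = 0.001786 to 0.175, limma). The Gadd45a region 34 kb downstream rose at PEAK_140 (4.78 ± 0.73, adjusted p = 4.7e-04) and stood at -0.84 and -0.68 at NADIR_180, near the VEH values of -0.90 and -1.07. The Gadd45g regions at 2.6 kb upstream and in its last exon, 1.4 kb downstream, were spread within groups. The first had 5.08 and 2.73 at PEAK_140 and 3.76 and -0.96 at CONS_140. The authors flagged the exonic region as a peak at CONS_140 only, so a rise there was partly built in. Of the Gadd45g regions, only this exonic region was called, at CONS_140 (3.31 ± 1.17, adjusted p = 0.03251, limma). That call held in 4 of 10 fits with 1 library left out, and the value was 1.41 (adjusted p = 0.2644) without VEH replicate 2. It was also lost without CONS_140 replicate 1 (2.45, adjusted p = 0.1852) and without any PEAK_140 or CONS_180 library (adjusted p = 0.05241 to 0.05509). The region 29.6 kb upstream of Gadd45b was called only between PEAK_140 and NADIR_180 (4.06 ± 1.47, adjusted p = 0.0344), which was lost without any PEAK_140, NADIR_180 or CONS_180 library (adjusted p = 0.05594 to 0.1192).

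Over the member regions the shares called were near those of all GR regions in most comparisons. At PEAK_140, 14 of the 19 regions were called against VEH (13 raised, 1 lowered), where 80.5% of all GR regions were called; all GR regions are peaks that the authors called in at least 1 group of these libraries, so a high share is built in. At NADIR_180, 4 of 19 were called (3 raised, 1 lowered; 7.79% of all). CONS_140 raised 14 (65.1% of all regions called) and CONS_180 raised 13 (68.2%). The median differences of the member regions from VEH were 4.46 (PEAK_140), 0.943 (NADIR_180), 3.72 (CONS_140) and 4.08 (CONS_180), beside 4.17, 0.841, 3.38 and 3.46 over all regions. With each library centred on its median, 1 member region was called for PEAK_140, 0 for NADIR_180, and 1 for CONS_140 and CONS_180 each, all downwards, since the shift of all regions is then removed. Without CONS_140 replicate 1, 9 regions were called at CONS_140.

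In the direct comparisons, PEAK_140 exceeded NADIR_180 at 13 of 19 regions (69.3% of all called; 8 without PEAK_140 replicate 1), and CONS_180 exceeded NADIR_180 at 11 (49.6% of all; 7 without CONS_180 replicate 1). CONS_140 and CONS_180 differed at 0 of 19 by limma (0% of all; 1 below an unadjusted p of 0.05), and PEAK_140 and CONS_140 at 0 of 19 (0.0502% of all; 3 below an unadjusted p of 0.05; 3 called without CONS_140 replicate 1 and 1 without CONS_140 replicate 2). The change from 140 to 180 min differed between PULS and CONS at 6 regions (44% of all called), 2 near Ddit4, 2 near Errfi1, 1 near Dusp6 and 1 near Gadd45a, by 3.41 to 4.58. At these 6, PEAK_140 was above NADIR_180, and CONS_140 and CONS_180 were not called apart (-1.38 at Dusp6 to 1.25 at the downstream Ddit4 region). This count was 2 without PEAK_140 replicate 1, 10 without NADIR_180 replicate 1, 3 without CONS_140 replicate 2, 3 without CONS_180 replicate 1 and 2 without CONS_180 replicate 2, and 0 with each library centred on its median.

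Of the members, 9 of 10 had at least 1 GR region within 50 kb and 5 of 10 had at least 2, where 16.9% and 5.61% of 26426 genes did, and 23.5% and 8.18% of the genes tested in RNA. The members were chosen with earlier results of these data known, so these shares only describe the list. Of the 19 regions, 9 lay upstream and 10 downstream of the TSS, and 4 were within 1 kb of it. The authors named the member as the nearest gene for 14 of the 19. For the others they named AABR07056791.1 (Dusp6), RF00003 (Gadd45a), Park7 (Errfi1 at 42.2 kb), and Timm13 and Gng7 (Gadd45b). The authors' peak flags marked 14 of the 19 for PEAK_140, 0 for NADIR_180 and 15 for each CONS time, beside 80.6%, 1.81%, 43.3% and 61% of all GR regions. CONS_140 replicate 2 was below 0 at 4 regions where replicate 1 was above 3 (the exon 1 region of Dusp1, the region 14.3 kb downstream of Errfi1, and the upstream regions of Gadd45b and Gadd45g), and it held 3663062 tags against 6715803. The part of depth in these values was not tested.

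**Figure D4:**
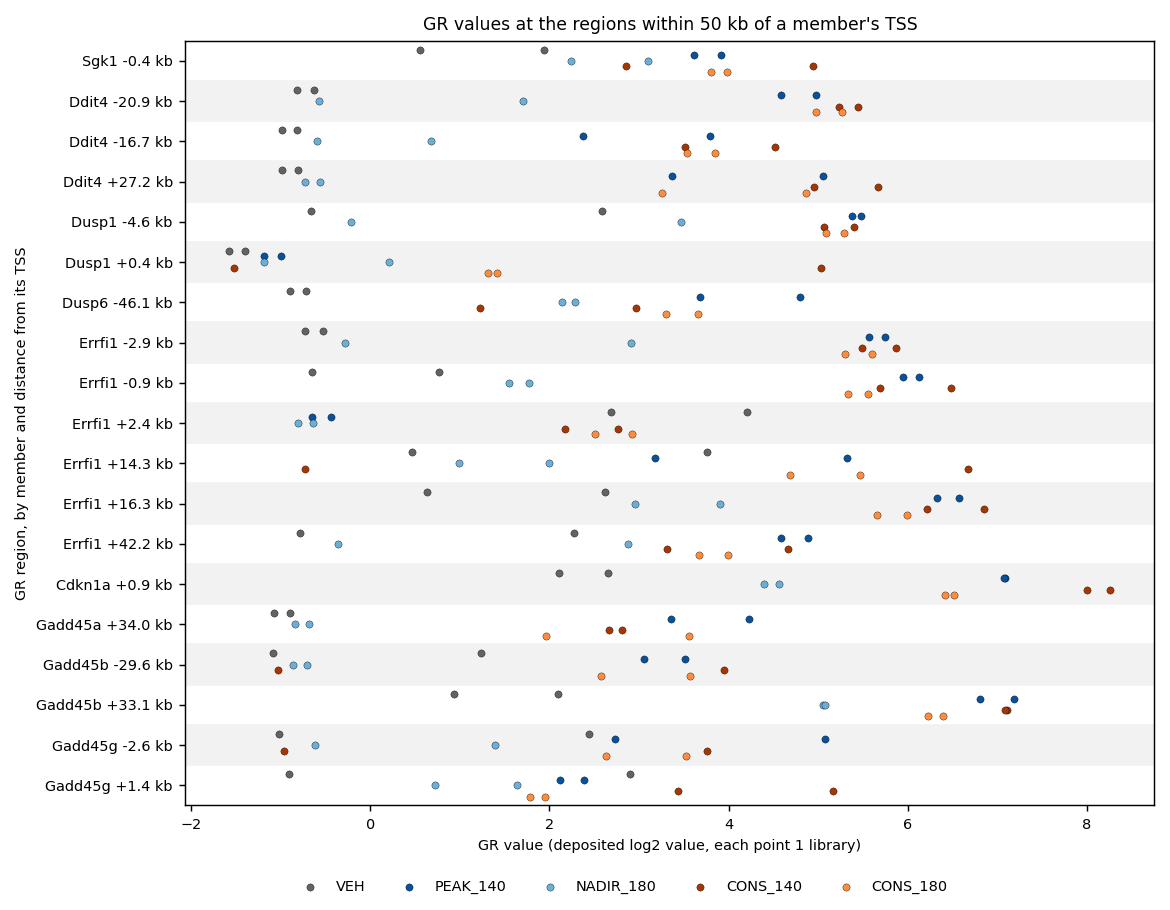
GR value (x axis, deposited log2 value) in each of the 10 libraries at the 19 GR regions near the members, ordered by gene and distance from the TSS on the y axis. PEAK_140 and both CONS groups lie to the right of VEH and NADIR_180 at most regions; at the Errfi1 region at +2.4 kb VEH is highest (4.20 and 2.69), and at Cdkn1a +0.9 kb and Gadd45b +33.1 kb NADIR_180 stays between VEH and PEAK_140.

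Sequences are shown for 4 of these regions, taken from the study's list of matches to its GR motif. All 19 regions were looked up there, and the 4 shown include 2 of the 3 regions called as raised at the trough. Capitals mark the ACA and TGT of the palindrome core, and overlapping matches were joined.
Cdkn1a, in chr20:6352069-6352694 (rn6): ggcACAgtaTGTtcc
Gadd45b, in chr7:11614831-11615516 (rn6): tgaACAccgTGTgct
Dusp1, in chr10:16965722-16966389 (rn6): tgaACAcagTGT
Errfi1, in chr5:167994577-167995202 (rn6): ggaACAagcTGT
All 4 hold the whole core with a spacer of 3 b, and the second match listed for the Cdkn1a region, gggacagggagt, does not hold it. The list holds only matches to that motif, so a core in them is partly built in and does not show which bases GR bound. Of the 4 regions, those of Cdkn1a and Gadd45b were called at NADIR_180. The Dusp1 and Errfi1 regions had values of 3.47 and -0.21, and 2.88 and -0.36, there and were not called. The lookup returned no match for the other 15 regions, the Dusp6 region among them. For each, either no match was listed or the region was not in that list.

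In pSer2 Pol2, besides CONS_140, no gene-level member region was called by limma. At PEAK_140 against VEH, 0 of 9 were called (0.91% of all; 3 below an unadjusted p of 0.05), at NADIR_180 0 of 9 (0.00615% of all; 0 below), and at CONS_180 0 of 9 (0.209% of all; 3 below). PEAK_140 against NADIR_180 gave 0 of 9 (0.443% of all; 5 below), CONS_180 against NADIR_180 0 of 9 (0.154%; 4 below), PEAK_140 against CONS_140 0 of 9 (0.0246%; 2 below), CONS_140 against CONS_180 0 of 9 (0%; 4 below) and the difference of the time effects 0 of 9 (0.043%; 2 below). In no such comparison did limma without the variance trend call a member. With the replicate block, 1 member was called at PEAK_140 (Dusp6, lower) and 4 at CONS_140 (Cdkn1a, Ddit4 and Gadd45g higher, Dusp6 lower), and without CONS_140 replicate 2, 5 were called at CONS_140. Without the same library, 2 were called between CONS_140 and CONS_180 and between PEAK_140 and CONS_140 (Ddit4 and Sesn1), and 3 in the difference of the time effects (Ddit4, Errfi1 and Sesn1). All comparisons with VEH share the same 2 VEH libraries.

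The other genes of these pathways were counted in the same way, beside 9.2% of all genes called under CONS and 4.23% under PULS. Among 15 other MAP kinase phosphatases and Sprouty and Spred inhibitors of ERK signalling, 12 were tested in RNA and 1 was called, Dusp10, a p38 and JNK phosphatase, which fell under CONS (-1.46 ± 0.33, adjusted p = 0.007899, edgeR). Of 15 components and inhibitors of mTORC1, 14 were tested, and the sestrins split under CONS, with Sesn2 up (0.94 ± 0.24, adjusted p = 0.01593) and Sesn3 down (-0.81 ± 0.20, adjusted p = 0.01325). The median log2 difference under CONS was 0.35 for the phosphatase list and 0.03 for the mTORC1 list, against -0.01 over all genes.

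Of 18 CDK inhibitors, p53 targets and cyclins, 15 were tested. Plk3, a stress-responsive polo-like kinase, rose under PULS (1.73 ± 0.37, adjusted p = 0.01293, edgeR) and under CONS (2.53 ± 0.34, adjusted p = 1.2e-04), and Plk2 fell under CONS (-0.79 ± 0.20, adjusted p = 0.01629). The p53 targets Mdm2, Ccng1 and Btg2 and the CDK inhibitor Cdkn1b were tested and not called in either arm, and Cdkn1c did not pass the read filter. The antiproliferative gene Btg1 was called in pSer2 Pol2 at CONS_140 (1.67 ± 0.32, adjusted p = 0.0429, limma).

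All 14 genes of the SGK and ErbB list were tested. Sgk2 fell under PULS (-1.49 ± 0.33, adjusted p = 0.01376, edgeR) and under CONS (-1.39 ± 0.31, adjusted p = 0.006918). Under CONS the ubiquitin ligase Nedd4l (1.06 ± 0.13, adjusted p = 3.2e-05) and the kinase substrate Ndrg1 (0.80 ± 0.25, adjusted p = 0.04292), both targets of SGK1, rose, as did Egfr (0.87 ± 0.18, adjusted p = 0.003538), the receptor that Errfi1 inhibits. Of 11 immediate early genes, 6 passed the read filter and 1 was called, Zfp36, which destabilises mRNA, under CONS (2.52 ± 0.32, adjusted p = 6.4e-05). Fos, Egr1 and Atf3 were at or below 1.24 CPM in every RNA library. In pSer2 Pol2 all 11 were tested, and 1 was called upwards at PEAK_140 and 1 at CONS_140 against VEH. Of all gene-level regions, 0.91% and 0.775% were called there. The median of the list was 0 at PEAK_140 and 0.94 at CONS_140, against -0.05 and 0.15 over all genes.

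The genes whose RNA profile over the 12 libraries was most like that of a member, by Pearson r of log2 CPM among 10725 candidates, are a description over libraries that share groups and depth. For Cdkn1a they were Polg2 (r = 0.974), Tomm20 (0.970) and Pfkfb1 (0.969), and for Errfi1 Zfp189 (0.962), Cdc42ep4 (0.951) and Med25 (0.951). For Dusp6 they were RGD1307603 (0.943) and Il13ra1 (0.938), and for Dusp1 Vapa (0.926), Gpat3 (0.921) and Dclre1b (0.915). Sgk1 was most like Tle3 (0.902), Abhd12b (0.896) and Tbx3 (0.872), Sesn1 like Helz (0.938), Ubr1 (0.903) and Pxdc1 (0.857), Gadd45g like LOC100359922 (0.954), Zfp366 (0.912) and Slc37a2 (0.876), and Gadd45a like Mgp (0.862), Gaa (0.818) and Sh3bgrl3 (0.806). Ddit4 and Gadd45b had a mean below 10 reads and were left out.

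Markers of other liver cells moved in 1 list. The stellate cell and fibroblast markers (Col1a1, Dcn, Lrat and Pdgfrb) summed to 58.8 to 83.6 CPM in CONS VEH and 41.3 to 45.7 CPM in CONS CORT, and to 71.1 to 88.6 and 49.3 to 62.4 CPM in the pulsatile arm. Under CONS, Pdgfrb fell (-1.29 ± 0.20, adjusted p = 3.5e-04, edgeR) and Dcn rose (1.16 ± 0.34, adjusted p = 0.03595), in the same libraries as the fall of Sgk1 and Dusp6, and the part of these cells in that fall was not tested. No tested marker of Kupffer cells, endothelial cells, cholangiocytes, lymphocytes, neutrophils or red cells was called in either arm, and the neutrophil markers summed to 0 to 2.76 CPM.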

How the data were processed

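RNA-Seq, GR ChIP-Seq and pSer2 Pol2 ChIP-Seq of rat liver were analysed from deposited tables. The authors deposited raw counts per Ensembl gene, described as exonic reads, and per the labels used STAR and featureCounts 1.6.2 on the Rnor_6.0 annotation. For ChIP the authors deposited log2 values per region and library, made from reads aligned to rn6 with input tags subtracted (HOMER 4.9.1). The values are not whole, fall below 0 and are drawn together at low tags, so they were compared as log2 values. Region starts and ends, and the flags of the authors' peak calls, are the authors' other columns. Their own fold changes and p-values were not used. Values of the 10 input libraries were not analysed here.

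RNA counts of genes with more than 10 reads over 12 libraries were fitted with edgeR 4.0.16 (TMM, quasi-likelihood, 12 libraries in 1 fit, R 4.3.3). CPM of single genes are TMM-scaled, and the summed CPM of cell markers are scaled to total reads without TMM. For single genes 3 reads, the upper limit for a listed 0, correspond to 0.366 to 0.746 CPM and cover counting error only. ChIP values were fitted with limma 3.58.1 (10 libraries per assay, variance trend); pSer2 Pol2 regions with 1 value in all libraries were left out, which left 38315 of 60999. ChIP n is 2 pools per group and RNA n is 3 rats. Adjusted p-values are Benjamini-Hochberg over all features of an assay. The fits were tested on simulated data.

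The named genes are the 10 members, the GR regions within 50 kb of any member TSS and, from 5 related lists, the genes called. Immediate early genes called in pSer2 Pol2 are given by count only. The members and lists were chosen with earlier results of these data known. Same-numbered pSer2 Pol2 libraries deviated together (r = 0.15 to 0.55 over 12 comparisons of same-numbered libraries), so the replicate block is given beside results it changes. With 2 libraries per group, both replicate numbers give the same r by construction, so these 12 comparisons are not independent. The VEH libraries, which carry no replicate number in the labels, were set midway. GR (r = -0.03 to 0.07) and RNA (-0.11 to 0.14) numbers did not pair. Alternatives were RLE scaling, DESeq2 1.42.0, other filters, median centring, quantile normalization, no variance trend, other windows and each library left out. Promoters were read from RefSeq (GRCr8) and figures drawn with matplotlib 3.10.9. Of the genes most like each member in RNA, the leading 3 are named, except 1 that is not reported here.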

Additional observations from a re-analysis of the deposited data

Results flagged for a closer look

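The change of GR between 140 and 180 min differed between PULS and CONS, by the limma test of that difference, at 6 regions near members. PULS minus CONS was 4.00 ± 1.06 at the Ddit4 region 20.9 kb upstream (adjusted p = 0.01967) and 3.61 ± 1.12 at the Ddit4 region 27.2 kb downstream (adjusted p = 0.0321). At Errfi1 it was 4.11 ± 1.27 at 2.9 kb upstream (adjusted p = 0.03144) and 3.75 ± 0.82 at 0.9 kb upstream (adjusted p = 0.01126). It was 3.41 ± 1.05 at Dusp6, 46.1 kb upstream (adjusted p = 0.03149), and 4.58 ± 1.04 at Gadd45a, 34 kb downstream (adjusted p = 0.01245).

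At all 6, both PEAK_140 libraries were above both NADIR_180 libraries. The median of all GR regions was 3.11 in the same test, and 44% of them were called. The regions 0.9 kb upstream of Errfi1 and 34 kb downstream of Gadd45a were called without any of the 10 libraries, and the other 4 were lost without some of them (4 to 6 of 10 kept the call).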

How the results depend on the processing

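The RNA of Ddit4 and Gadd45b rests on 0 to 23 reads per library, and with 2 libraries per ChIP group many calls rest on 1 library. Values of single members and regions were followed for the 84 results that were called. RLE scaling and the filterByExpr filter changed no RNA count beyond 1.5 times, and no cause of a change below was tested unless the setting itself gives it.

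In RNA, without a filter on low counts 5 members were called under PULS, 1 in the difference of the responses and 1 for CONS CORT against PULS CORT. With only the libraries of the comparison, 1 was called for CONS CORT against PULS CORT. In pSer2 Pol2, centring on the median gave 2 at PEAK_140, 3 at CONS_140, 1 at CONS_180, 2 for PEAK_140 against NADIR_180 and 1 for the time effects. Quantile normalization gave 2, 2, 1 and 1 for the first 4 of these. Without the variance trend, or with only the libraries of the comparison, 0 were called at CONS_140. The replicate block gave 1 at PEAK_140 and 4 at CONS_140 in pSer2 Pol2, and it changed no other call. For GR and RNA, whose numbers did not pair, the block left every count within 1.5 times.

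For GR against VEH, centring gave 1 region (PEAK_140), 0 (NADIR_180), 1 (CONS_140) and 1 (CONS_180), and quantile normalization gave 4, 2, 6 and 5. PEAK_140 against NADIR_180, CONS_180 against NADIR_180 and the time effects gave 0, 0 and 0 with centring and 1, 0 and 0 with quantiles. Both scalings remove the shift of all GR regions by construction. At NADIR_180, 2 were called without the trend and 0 with only the libraries of the comparison. Within 25 kb the counts were 9 at PEAK_140, 2 at NADIR_180, 9 at CONS_140, 8 at CONS_180, 7 for PEAK_140 against NADIR_180 and 3 for the time effects. Within 100 kb they were 24 at PEAK_140, 23 at CONS_140, 22 at CONS_180, 23 for PEAK_140 against NADIR_180, 18 for CONS_180 against NADIR_180 and 10 for the time effects.

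Centring turned the sign of 20 called GR differences. At PEAK_140 these were Sgk1 (-2.10), Ddit4 at 16.7 kb (-0.64), Dusp1 at 4.6 kb (-0.15) and Errfi1 at 42.2 kb (-0.62). At CONS_140 they were Sgk1 (-1.47), Dusp6 (-1.21), Errfi1 at 42.2 kb (-0.87), Gadd45a (-0.39) and Gadd45g at 1.4 kb (-0.80), and at CONS_180 Sgk1 (-1.43), Errfi1 at 42.2 kb (-0.97) and Gadd45a (-0.31). For PEAK_140 against NADIR_180 they were Ddit4 at 16.7 kb (-0.40), Dusp6 (-1.41), Errfi1 at 16.3 kb (-0.41), Cdkn1a (-0.84) and Gadd45b at 33.1 kb (-1.50). For CONS_180 against NADIR_180 they were Errfi1 at 16.3 kb (-0.48), Cdkn1a (-0.90) and Gadd45b at 33.1 kb (-1.63).

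Quantile normalization turned 16. At PEAK_140 these were Sgk1 (-1.91) and Errfi1 at 42.2 kb (-0.39), at CONS_140 Sgk1 (-1.09), Dusp6 (-0.63), Errfi1 at 42.2 kb (-0.72) and Gadd45g at 1.4 kb (-0.31), and at CONS_180 Sgk1 (-1.17) and Errfi1 at 42.2 kb (-0.75). For PEAK_140 against NADIR_180 they were Ddit4 at 16.7 kb (-0.20), Dusp6 (-0.93), Errfi1 at 42.2 kb (-0.04), Cdkn1a (-0.03) and Gadd45b at 33.1 kb (-0.63), for CONS_180 against NADIR_180 Cdkn1a (-0.07) and Gadd45b at 33.1 kb (-0.77), and for the time effects Ddit4 at 27.2 kb (-0.09).

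With each library left out in turn, RNA counts ranged from 2 to 4 under PULS, 4 to 7 under CONS and 0 to 1 for CONS CORT against PULS CORT. In pSer2 Pol2 they ranged from 0 to 5 at CONS_140, 0 to 1 for PEAK_140 against NADIR_180, 0 to 2 for CONS_140 against CONS_180, 0 to 2 for PEAK_140 against CONS_140 and 0 to 3 for the time effects. For GR they ranged from 11 to 16 at PEAK_140, 3 to 4 at NADIR_180, 9 to 16 at CONS_140, 10 to 14 at CONS_180, 8 to 14 for PEAK_140 against NADIR_180, 7 to 13 for CONS_180 against NADIR_180, 0 to 3 for PEAK_140 against CONS_140 and 2 to 10 for the time effects. Where 1 library of a ChIP pair was left, it was taken to vary like the other groups. Counting Sgk1 by a transcript region, an alternative chosen after seeing the data, changed no count.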
